A study of Mus musculus with 36 samples.

Results

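MC-38 is a colon carcinoma line of C57BL/6 mice that can be transplanted into hosts of the same strain. Its tumours were taken from wild-type hosts and from hosts with the sash mutation of Kit, which is used as a model of mast cell deficiency, and their RNA was read with a targeted panel of immune and cancer genes. The tumours described here are all 9 MC-38 libraries of the deposited count table, out of 34 libraries analysed in the series: 5 from sash hosts (replicates 1, 2, 4, 5 and 6) and 4 from wild-type hosts (replicates 1, 3, 4 and 5). A further wild-type and a further sash MC-38 sample carry labels (36 labelled samples in all) and are not analysed here. All 9 libraries share the labelled tissue (colon), line (MC-38), cell type (cancer cell) and treatment (saline), and the groups differ in the labelled genotype of the host alone. Not given in the sources used here are age, place of growth and time of harvest. The other libraries come from experiments with the carcinogen azoxymethane (AOM), and 10 of them, colon tumours of wild-type and sash C57BL/6 mice (5 each, 32 weeks old), serve as the comparison below. Those mice had received 6 intraperitoneal doses of 10 mg/kg AOM, 1 a week, and were examined 18 weeks later.

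The sash mutation is a rearrangement upstream of the Kit coding sequence. It removes mast cells from the host but also alters Kit in other cells, so the loss of mast cells and other effects of the mutation cannot be told apart here. The transplanted cells are the same in both groups and do not carry it. The libraries measure bulk RNA, in which fewer cells of a type and less RNA per cell cannot be told apart. Whether each sample is its own mouse is not labelled, so a p-value here reflects the spread between these samples and no more.

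Mast cells store proteases in their granules. These are above all carboxypeptidase A3, the tryptases and the chymases, and the stored proteins are held with histamine that the cells make and pack themselves. Kit, the receptor of stem cell factor, keeps mast cells alive, and GATA factors switch on many of their genes. MHC class II molecules are made mainly by macrophages, dendritic cells and B cells, which show peptides to CD4+ T cells on them. Their genes are switched on together by the coactivator CIITA, which has no DNA contact of its own and docks on factors bound to short promoter elements, among them the Y box.

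The 250 bases before the start of 3 genes are shown because the results turn on their groups: Cpa3 for the mast cell proteases, and H2-Eb1 and H2-Aa for class II, one of which passed the test below while the other did not. The sequences are RefSeq promoters of build GRCm38.p6, whereas the submitters' processing notes name mm9 for the counts. Capitals mark AGATAA in Cpa3, a motif of the kind that factors such as Gata2 bind, and the Y box letters CTGATTGG in the class II genes, each searched on both strands and with no overlap between them.
Cpa3, chr3:20242182-20242431, minus strand: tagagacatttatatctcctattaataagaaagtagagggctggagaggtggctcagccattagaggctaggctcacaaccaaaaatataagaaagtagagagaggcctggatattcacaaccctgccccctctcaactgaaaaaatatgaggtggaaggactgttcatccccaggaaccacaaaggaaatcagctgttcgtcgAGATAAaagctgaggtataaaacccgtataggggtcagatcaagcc
H2-Eb1, chr17:34305617-34305866, plus strand: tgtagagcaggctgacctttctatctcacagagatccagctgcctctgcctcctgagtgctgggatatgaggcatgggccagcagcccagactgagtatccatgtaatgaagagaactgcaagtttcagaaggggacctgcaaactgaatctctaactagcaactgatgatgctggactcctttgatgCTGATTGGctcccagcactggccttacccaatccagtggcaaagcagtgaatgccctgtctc
H2-Aa, chr17:34287824-34288073, minus strand: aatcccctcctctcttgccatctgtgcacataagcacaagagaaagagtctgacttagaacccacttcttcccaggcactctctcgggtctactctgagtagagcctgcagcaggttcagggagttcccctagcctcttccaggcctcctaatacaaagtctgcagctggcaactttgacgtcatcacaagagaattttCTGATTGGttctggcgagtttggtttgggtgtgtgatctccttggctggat
AGATAA occurs once in the Cpa3 window, 46 bases before the start, and in 9.99% of 32851 mouse promoters of the same length (3281). CTGATTGG occurs once in each class II window, 62 bases before the start in H2-Eb1 and 51 in H2-Aa, and in 3.83% of the promoters (1258). A match is a description of the letters and not of binding. Entries for these 3 were found among the 8 genes looked up. Tpsab1, Tpsb2, H2-Ab1, Ciita and Cd74 are named only.

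The libraries held 480136 to 889888 counts in sash and 633693 to 986415 in wild-type hosts, with 815 to 863 of the 988 panel genes seen in each. The ribosomal protein gene Rpl13a took 8.56% to 11.9% of the counts and B2m, which encodes beta-2 microglobulin, 8.18% to 12.5%. Of the 988 genes, 714 were high enough to test and 274 were not, of which 78 had no count in any of the 9 libraries. Epcam, a defining surface gene of colon epithelium, stood at 0 to 3.32 CPM in sash and 1.05 to 2.66 CPM in wild-type libraries, near the limit of detection throughout. Levels are CPM, which are counts as a share of the library total after TMM scaling. The first principal component held 52.0% of the variance. Sash libraries 2 and 5 were highest on it, at 19.0 and 12.1, and wild-type 1 and 3 lowest, at −14.5 and −12.3. The others lay between −6.58 and 4.67, with sash 4, at −5.47, inside the wild-type range.

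Across the panel 9 genes passed the test at an adjusted p under 0.05, 1.26% of those tested (5 higher, 0.7%, and 4 lower, 0.56%). The mast cell proteases Cpa3, Tpsab1 and Tpsb2 and the RNA-binding protein gene Rbm3 fell in sash hosts. The class II genes H2-Ab1 and H2-Eb1, their coactivator Ciita, the adaptor gene Sla and the matrix gene Thbs4 rose. In all 9, no sash library overlapped any wild-type library, as held for 62 genes in all (8.68% of those tested; 28 with sash higher, 3.92%, and 34 lower, 4.76%). At an unadjusted p under 0.05 there were 156 genes (21.8%), 76 higher (10.6%) and 80 lower (11.2%). The test was the quasi-likelihood test of edgeR with Benjamini-Hochberg adjustment, which gives each adjusted p below unless DESeq2 is named, and each difference is log2, sash minus wild type. The split of 5 higher and 4 lower became 6 and 3 with library totals and 11 and 3 with scaling to the 3 housekeeping genes B2m, Tfrc and Rpl13a, which raised the median difference of all genes by 0.17. DESeq2 called 48 of the 644 genes it gave an adjusted p (7.45%), 24 in each direction (3.73% each), and these contained the 9. Leaving out 1 library at a time gave 3 calls (without sash 5 or wild-type 3) to 17 (without sash 4), and the 3 proteases were among them each time.

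**Figure D1:**
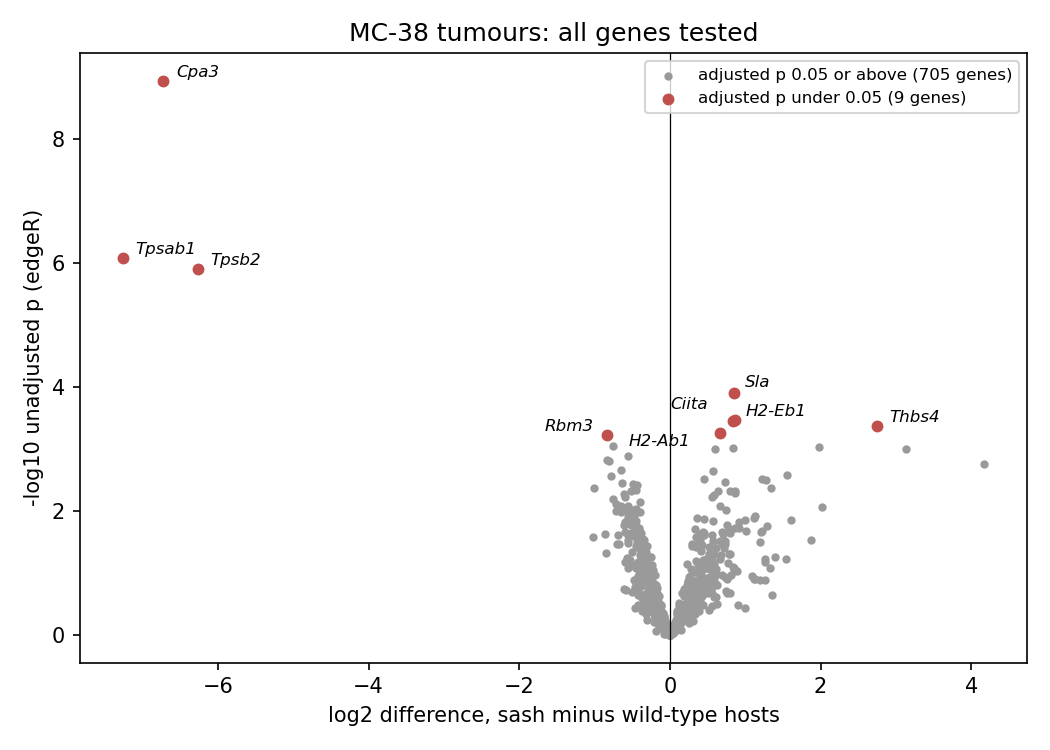
Each point is 1 of the 714 tested genes, with its log2 difference (sash minus wild-type hosts) on the x axis and the −log10 of its unadjusted edgeR p on the y axis. Red points are the 9 genes that passed, of which the 3 mast cell proteases lie far to the left at −6.27 or below and the other 6 lie between −0.84 and 2.75.

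Kit itself was close to the limit of detection, at 8.09, 18.6, 8.39 and 6.01 CPM in wild-type and 2.02, 23.2, 13.2, 17.6 and 8.26 CPM in sash libraries. The groups overlapped, with 31 counts in 4 wild-type and 44 in 5 sash libraries, so Kit RNA did not separate the hosts. The mutation lies outside the amplified stretch, and the proteases check the host labels more directly.

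Cpa3, the gene of carboxypeptidase A3, stood at 259, 395, 684 and 699 CPM in wild-type libraries 1, 3, 4 and 5 and at 4.05, 6.64, 3.31, 5.50 and 3.30 CPM in sash libraries 1, 2, 4, 5 and 6. Every wild-type library thus held far more than any sash library, and the difference was −6.72 (SE 0.38, adjusted p = 8.12e-07). Tpsab1, which encodes a tryptase, read 67.9, 102, 233 and 282 CPM in wild-type libraries and 0 in all sash libraries but replicate 6, at 4.96 CPM, with a difference of −7.26 (SE 0.75, adjusted p = 0.000293). Tpsb2, another tryptase gene, read 48.5, 77.2, 138 and 162 CPM and was at 0 in all sash libraries but replicate 5, at 4.40 CPM, with a difference of −6.27 (SE 0.68, adjusted p = 0.000293). Among the wild-type tumours replicate 1 was lowest and replicate 5 highest for all 3 genes. Because the sash libraries were at or near 0, these fitted differences depend on the prior count. The pooled counts of each gene therefore stand beside them: 1574 wild-type against 15 sash counts for Cpa3, 529 against 3 for Tpsab1 and 328 against 4 for Tpsb2. Leaving out 1 library at a time kept the ratio of these counts, each over its group's library totals, between 94.2 and 123 for Cpa3. Over the libraries whose removal left a sash count it ran from 132 to 213 for Tpsab1 and from 67.3 to 97.5 for Tpsb2. Without sash 6 no Tpsab1 count and without sash 5 no Tpsb2 count was left in sash hosts. The ratio has no upper end there, and a floor of 3 counts gave 145 and 81.6.

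The other mast cell genes on the panel were low or shared with other cells. Cma1, the gene of a chymase, had 12 counts over the wild-type libraries, of which replicate 1 had none, and 0 in sash. With a floor of 3 counts over the sash group the ratio was 4.15, and its exact 95% lower limit from the counts was 2.88. Slc18a2, the transporter that packs histamine into granules, had 12 against 1 count, a ratio of 12.5 (exact 95% interval 1.84 to 532). It was seen in all 4 wild-type libraries, at 4.85, 3.99, 4.20 and 3.00 CPM, and in sash 2 only. Ms4a2, the beta chain of the IgE receptor, had 7 against 2 counts, and Hdc, which makes histamine, 18 against 10. Both overlapped between the groups. These intervals cover counting error at most.

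Hpgds and Gata2, though tested, did not pass. Hpgds, a prostaglandin D synthase also made by macrophages and T cells, stood at 243, 179.7, 186 and 189 CPM in wild-type and 206, 178, 156, 195 and 173 CPM in sash libraries, a difference of −0.13 (SE 0.14, adjusted p = 0.603). Gata2, a transcription factor of mast and endothelial cells, stood at 713, 673, 566 and 655 CPM and 506, 360.3, 603, 459 and 887 CPM, a difference of −0.21 (SE 0.23, adjusted p = 0.605). Of the 20 names of the mast cell list 10 were on the panel and 5 could be tested. All 5 had a difference below 0 (51.8% of all genes tested), 3 fell (0.56%), and their median was −6.27 against −0.01 over all genes tested.

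**Figure D2:**
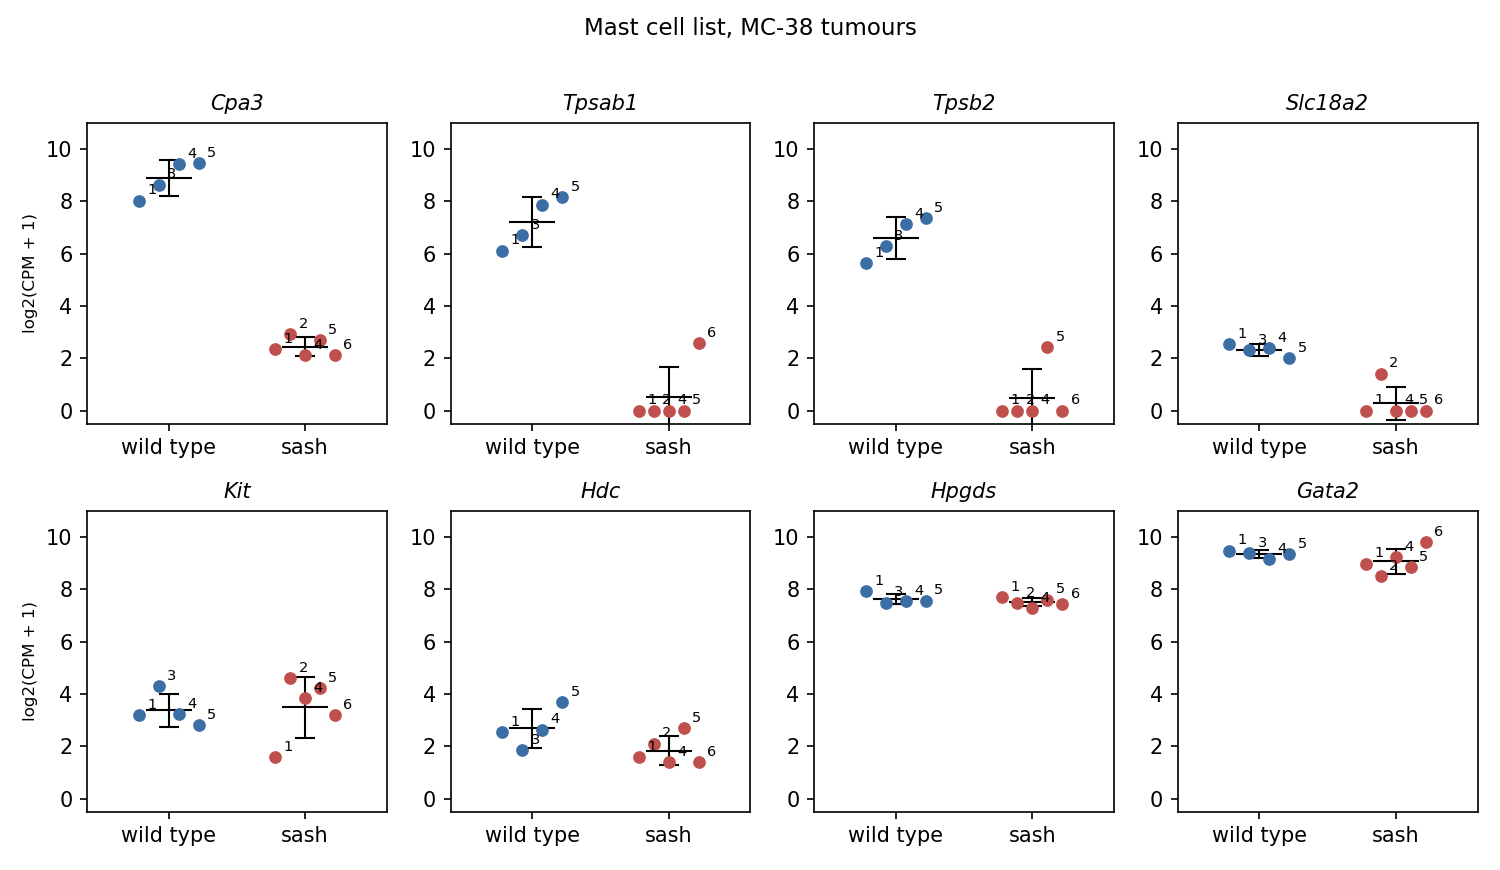
Each panel shows 1 gene of the mast cell list as log2(CPM + 1) on the y axis, with wild-type libraries in blue, sash libraries in red, replicate numbers beside the points, and bars for mean and SD. The 3 proteases Cpa3, Tpsab1 and Tpsb2 are far apart between the hosts, Slc18a2 is low in both, and Kit, Hdc, Hpgds and Gata2 overlap or nearly meet.

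The class II beta chain genes H2-Eb1 and H2-Ab1 and the coactivator gene Ciita were higher in tumours of sash hosts. Ciita stood at 138, 104, 134 and 117 CPM in wild-type libraries 1, 3, 4 and 5 and at 221, 208, 275, 232 and 165 CPM in sash libraries 1, 2, 4, 5 and 6. The lowest sash library exceeded the highest wild-type one, and Ciita rose by 0.84 (SE 0.17, adjusted p = 0.0422). H2-Eb1, a beta chain of class II, stood at 3507, 2799, 4474 and 3152 CPM and 5124, 7868, 5929, 6852 and 5979 CPM and rose by 0.87 (SE 0.17, adjusted p = 0.0422). H2-Ab1, another beta chain, stood at 39933, 32178, 45429.8 and 37657 CPM in wild-type and 55172, 72436, 52119, 63301 and 64622 CPM in sash libraries and rose by 0.67 (SE 0.14, adjusted p = 0.0466). In fold terms these are 1.79, 1.82 and 1.59, and none of the 3 overlapped between the hosts.

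The other tested members of the class II list did not pass. H2-Aa, an alpha chain, stood at 5406, 5682, 7160.1 and 4774 CPM in wild-type and 5719, 8219.6, 6877, 7058 and 5956 CPM in sash libraries, with wild-type 4 inside the sash range and a difference of 0.23 (SE 0.16, adjusted p = 0.382). Cd74, the invariant chain that escorts class II molecules, overlapped fully, at 14091, 17205, 18566 and 11336 CPM and 14426, 16986, 16387, 16451 and 11441 CPM, with a difference of −0.02 (SE 0.17, adjusted p = 0.979). Ctss, the protease that trims the invariant chain, stood at 22584, 25917, 30048 and 23988 CPM and 19053, 23548, 14544, 21045 and 18406 CPM, a difference of −0.41 (SE 0.15, adjusted p = 0.163), in the other direction. Of the 9 members on the panel 6 were tested, 3 rose (0.7% of all genes tested), 4 had a difference above 0 (48.2%), and their median was 0.45. Rfxap, a subunit of the factor that recruits CIITA to class II promoters, read 501, 463, 356 and 361 CPM in wild-type and 344, 241, 333, 300.2 and 345 CPM in sash libraries. All 5 sash libraries were below the wild-type ones, but the difference of −0.43 (SE 0.16, adjusted p = 0.164) did not pass.

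The class II calls lay close to the threshold. H2-Eb1 no longer passed without any one of sash 2, 5 and 6 or wild-type 1, 3 and 5 (adjusted p from 0.0630 to 0.122), Ciita without any one of sash 1, 2 and 5 or wild-type 1, 3, 4 and 5 (0.0548 to 0.120), and H2-Ab1 without any one but sash 4 (0.0526 to 0.129). Their differences stayed between 0.59 and 0.92 over these fits. Ciita (adjusted p = 0.206) and H2-Ab1 (0.163) did not pass in a fit over all libraries of both tables, nor without robust dispersions (0.0503 and 0.0543). Without sash 2 and 4 together, a fit chosen after the values were seen, none of H2-Eb1, Ciita and H2-Ab1 passed. The macrophage list summed to 45048 to 60506 CPM in sash and 47098 to 57963 CPM in wild-type libraries, overlapping throughout. Of 10 tested dendritic cell genes none passed, 3 were above 0 and 7 below (48.2% and 51.8% of all genes tested), and the median was −0.10. The B and plasma cell list summed to 431, 516, 281, 505 and 391 CPM in sash and 270 to 380 CPM in wild-type libraries, with sash 4 alone inside the wild-type range. Its tested genes Cd22 and Blnk differed by 0.79 (adjusted p = 0.164) and 0.26 (adjusted p = 0.366). The part of such cells in the class II difference was not tested.

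**Figure D3:**
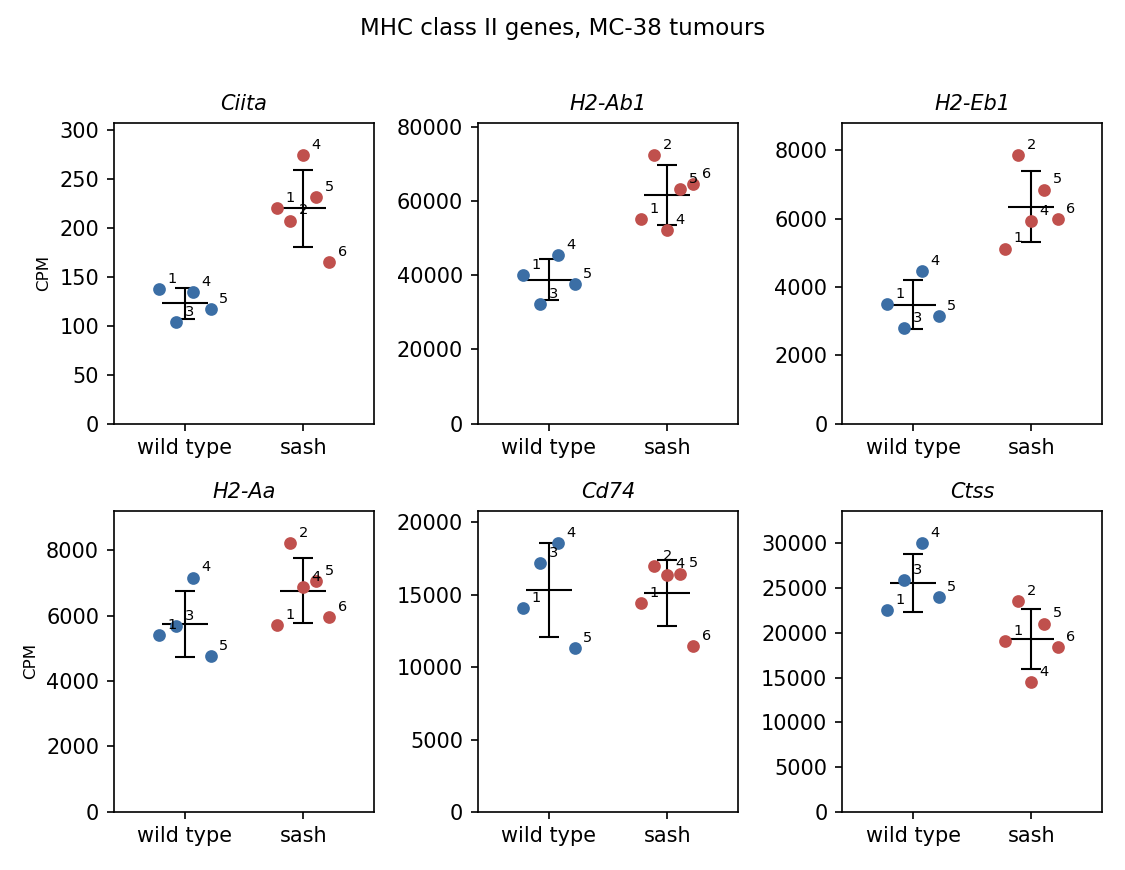
Each panel shows 1 of the 6 tested class II genes in CPM on a y axis that starts at 0, with wild-type libraries in blue, sash libraries in red, replicate numbers beside the points, and bars for mean and SD. Ciita, H2-Ab1 and H2-Eb1 separate the hosts, H2-Aa and Cd74 overlap, and Ctss lies lower in all sash libraries but replicate 2.

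Genes of the class I and interferon lists other than Ciita did not pass the test. Of 13 tested genes of the class I list 2 had a difference above 0 and 11 below (48.2% and 51.8% of all genes tested), and the median was −0.11. At an unadjusted p under 0.05 2 of the 13 were lower (11.2% of all genes), and DESeq2 called 1 lower, B2m (3.73% of all genes). B2m stood at 113867, 127784, 106860.0 and 101330.0 CPM in wild-type and 97964, 79063, 75309.9, 84370.1 and 91440.4 CPM in sash libraries, all sash libraries lower, with a difference of −0.39 (SE 0.12, adjusted p = 0.120). H2-K1, a class I heavy chain, stood at 5772 to 9726 CPM and 5277 to 6533 CPM and overlapped (difference −0.41, SE 0.16, adjusted p = 0.166). Class I genes are close copies of each other, so their counts may be split between them.

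Of the 18 tested genes of the interferon-gamma list, which also holds Ciita, only Ciita rose. In all, 13 were below 0 (51.8% of all genes tested), with a median of −0.08. At an unadjusted p under 0.05 2 were higher and 3 lower (10.6% and 11.2% of all genes), and DESeq2 called 2 higher, Ciita and Socs1, and none lower (3.73% of all genes in each direction). Cxcl9, a chemokine induced by interferon-gamma, differed by −0.51 (SE 0.18, adjusted p = 0.156), and Gbp2, a guanylate-binding protein, by −0.45 (SE 0.15, adjusted p = 0.128), with all 5 sash libraries below the wild-type ones for Gbp2. Socs1, the feedback inhibitor of this pathway, differed by 0.56 (SE 0.17, adjusted p = 0.104) with all 5 above. Irf1, one of its transcription factors, differed by −0.23. The type I interferon list had 13 tested genes, none of which passed. Of these 11 were below 0 (51.8% of all genes tested), 4 of them at an unadjusted p under 0.05 (11.2%) and 2 called by DESeq2 (3.73%), and the median was −0.22. Ifitm3, a restriction factor of virus entry, stood at 3635, 4969, 4216 and 2980.5 CPM in wild-type and 2231, 2718, 2725, 2811 and 2048 CPM in sash libraries without overlap (difference −0.66, SE 0.17, adjusted p = 0.0805). Ddx58, the sensor RIG-I, differed by −0.64 (SE 0.20, adjusted p = 0.127), Zbp1, a nucleic acid sensor, by −0.56 (adjusted p = 0.147) and Ifit3 by −0.59 (adjusted p = 0.147). With housekeeping scaling the class I and interferon-gamma medians turned to 0.0407 and 0.0861. The median of all genes tested was then 0.157, raised by 0.17. B2m, which was lower in all sash libraries, is both in that scaling set and in the class I list, so the class I median under this scaling is not independent of it.

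The proteasome, the complex that degrades ubiquitin-tagged proteins and supplies peptides to class I molecules, had 48 genes on the panel, of which 42 were tested. This group was taken up after its values were seen. None passed, but 36 of the 42 were below 0 against 51.8% of all genes tested, and the median was −0.36. At an unadjusted p under 0.05 17 were lower and none higher, against 11.2% lower and 10.6% higher over all genes. DESeq2 called 8 lower, against 3.73% of all genes it gave an adjusted p. Psma2, a subunit of the core ring, stood at 12055, 13343, 10759 and 9470.2 CPM in wild-type and 8446, 4146, 6988, 5709 and 7401 CPM in sash libraries without overlap (difference −0.80, SE 0.20, adjusted p = 0.0667). Psme2, a subunit of the interferon-induced activator, stood at 13925, 14403, 13815 and 11540.3 CPM and 9909, 7635, 10824, 9056 and 10528 CPM, also without overlap (difference −0.48, SE 0.13, adjusted p = 0.0929). The difference was −0.64 (SE 0.17, adjusted p = 0.0925) for its partner Psme1. For Psmb7, a catalytic subunit, it was −0.79 (SE 0.21, adjusted p = 0.0891). In both, 4 of 5 sash libraries lay under the wild-type range. The immunoproteasome subunits Psmb9 and Psmb10 differed by less than their SE, at −0.0046 (SE 0.13) and −0.11 (SE 0.15). The highest difference was that of Psmc1, an ATPase of the cap, at 0.24 (adjusted p = 0.354). The summed level was 104599 to 163705 CPM in sash, lowest in replicate 2, and 139304 to 163421 CPM in wild-type libraries. The median was −0.22 without sash 2, −0.23 without wild-type 3 and −0.20 with housekeeping scaling.

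**Figure D4:**
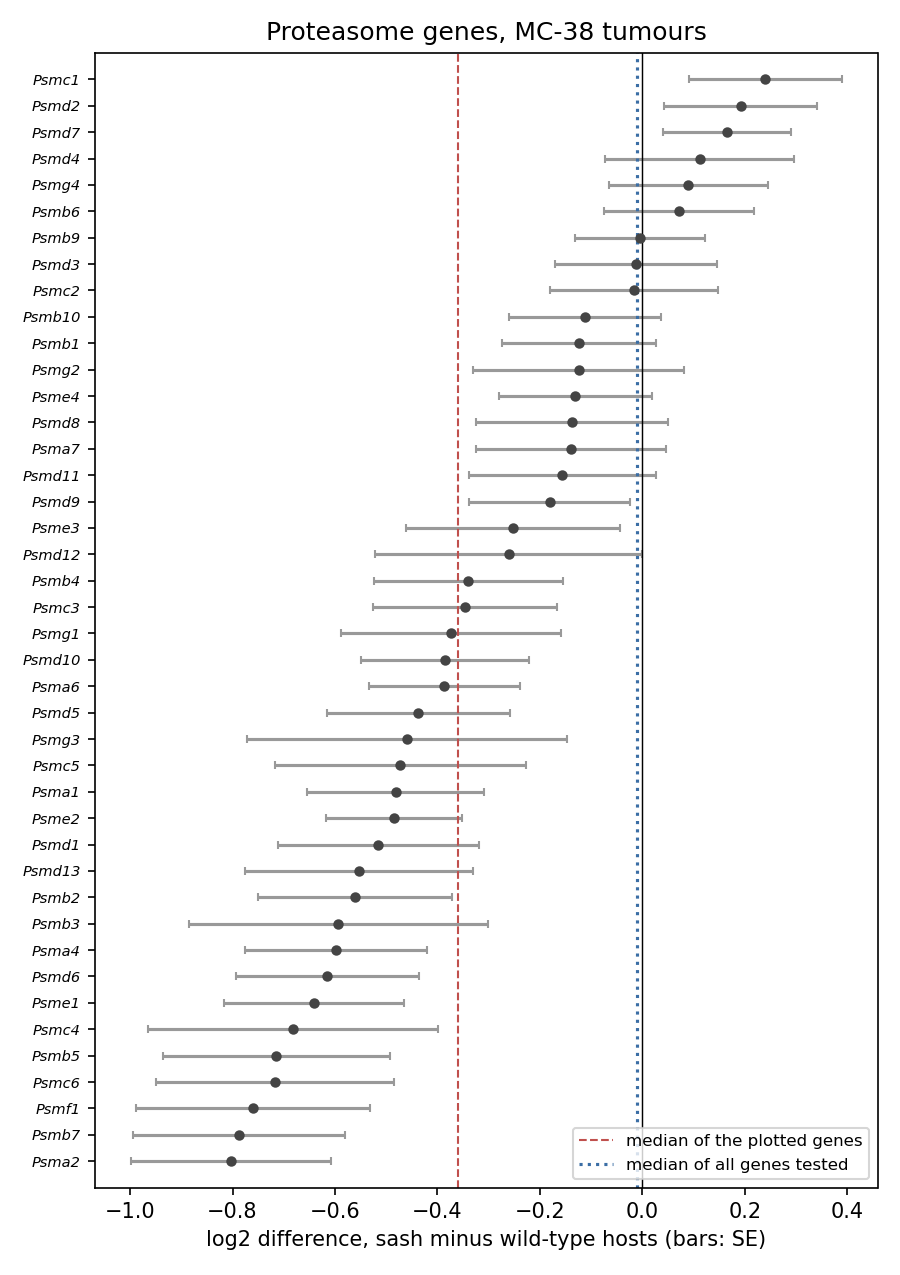
Each point is the log2 difference (sash minus wild-type hosts, x axis) of 1 of the 42 tested proteasome genes, with its SE as a bar and the genes sorted on the y axis. The dashed line marks their median of −0.36 and the dotted line that of all genes tested at −0.01, and 36 of the 42 points lie left of 0.

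Eosinophil genes had differences above 0, with a wide spread among the sash tumours. Prg2, the major basic protein of eosinophil granules, stood at 0, 5.32, 7.34 and 13.5 CPM in wild-type and 40.5, 292, 11.6, 172 and 95.8 CPM in sash libraries. Sash 2 and 5 were highest and sash 4 lay within the wild-type range, and the difference of 4.18 (SE 0.98, adjusted p = 0.0691) did not pass. Ccr3, the eotaxin receptor, stood at 8.09, 9.32, 21.0 and 31.5 CPM and 38.4, 141, 9.93, 100.1 and 66.1 CPM with the same order of sash libraries (difference 2.02, SE 0.64, adjusted p = 0.128). Ccl11, eotaxin itself, differed by 1.14 (SE 0.67, adjusted p = 0.338), again with sash 2 and 5 highest and sash 4 lowest. The list had 3 tested members, all above 0 (48.2% of all genes tested), with a median of 2.02. At an unadjusted p under 0.05 2 were higher, Prg2 and Ccr3 (10.6% of all genes), and DESeq2 called both (3.73%). Il4, a type 2 cytokine, stood at 0, 6.66, 12.6 and 30.0 CPM and 28.3, 96.3, 8.28, 58.3 and 36.3 CPM (difference 1.88, SE 0.75, adjusted p = 0.179).

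Sash 2 and 5 were also the highest, and sash 4 the lowest, for a pair of macrophage genes. Cd163, the scavenger receptor for haemoglobin on resident macrophages, stood at 1.62, 7.99, 7.34 and 4.51 CPM in wild-type and 16.2, 118, 11.6, 60.5 and 42.9 CPM in sash libraries without overlap (difference 3.13, SE 0.71, adjusted p = 0.0508). Clec10a, a lectin of alternatively activated macrophages and dendritic cells, stood at 6.47, 10.6, 2.10 and 9.01 CPM and 24.3, 39.9, 16.6, 35.2 and 19.8 CPM, also without overlap (difference 1.98, SE 0.45, adjusted p = 0.0508). Both missed the threshold narrowly. The list as a whole did not follow. Of 16 tested macrophage genes none passed, 9 were above 0 and 7 below (48.2% and 51.8% of all genes tested), and the median was 0.06. At an unadjusted p under 0.05 3 were higher and 3 lower (10.6% and 11.2% of all genes). DESeq2 called 2 higher and 1 lower (3.73% of all genes in each direction). Csf1r, the growth factor receptor of macrophages, differed by 0.67 (SE 0.21, adjusted p = 0.127), while Msr1, a scavenger receptor, differed by −0.49 (SE 0.16, adjusted p = 0.128) and the monocyte chemokine Ccl2 by −0.49 (SE 0.16, adjusted p = 0.137). Adgre1 and Cd68, general macrophage markers, differed by −0.18 and −0.13.

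Thbs4, which encodes the matrix protein thrombospondin 4, was the one gene with this order of sash libraries that passed. Its levels were 3.24, 18.6, 29.4 and 19.5 CPM in wild-type and 66.8, 251, 49.7, 154 and 95.8 CPM in sash libraries, without overlap, and it rose by 2.75 (SE 0.56, adjusted p = 0.0440), 6.71-fold. It did not pass without any one of sash 2, 5 and 6 or any wild-type library (adjusted p from 0.0644 to 0.129), nor without robust dispersions (0.0503), and its difference stayed between 2.35 and 3.13. Without sash 2 and 4 together, a fit chosen after their values were seen, it passed at 2.53 (adjusted p = 0.0350). H2-Eb1, H2-Ab1, Ciita and Rbm3 did not pass in that fit. The stroma and matrix list summed to 18899, 34518, 12028, 25569.5 and 18332 CPM in sash libraries and to 16150.5 to 24672 CPM in wild-type ones. Sash 2 and 5 were thus the highest of all 9 for stroma too, and sash 4 the lowest. None of the 9 tested stroma genes passed. Of these 7 were above 0 (48.2% of all genes tested), 1 of them at an unadjusted p under 0.05 (10.6%). DESeq2 called none, and the median was 0.33. Fap, of activated fibroblasts, and Pdgfrb, of fibroblasts and pericytes, differed by 1.11 (adjusted p = 0.339) and 0.85 (adjusted p = 0.285). The part of stroma in the differences of Prg2, Ccr3, Cd163, Clec10a and Thbs4 was not tested.

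**Figure D5:**
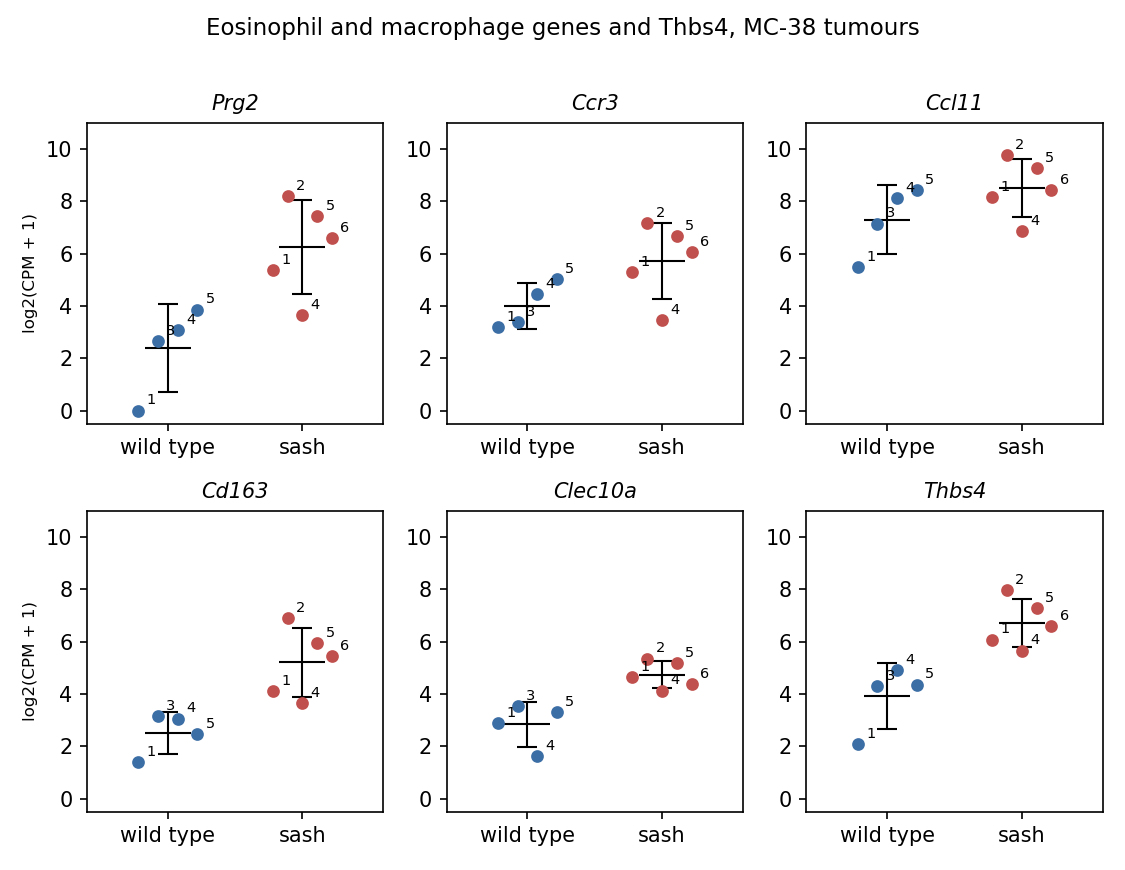
Each panel shows 1 gene as log2(CPM + 1) on the y axis, with wild-type libraries in blue, sash libraries in red, replicate numbers beside the points, and bars for mean and SD. Sash 2 is the highest and sash 4 the lowest sash library in all 6 panels, and the hosts do not overlap for Cd163, Clec10a and Thbs4.

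Sla, an adaptor that dampens antigen receptor signals in T and B cells and is found in myeloid cells too, had the smallest p outside the mast cell genes. Its levels were 179.6, 149, 157 and 156 CPM in wild-type and 231, 354, 252, 305 and 311 CPM in sash libraries, all wild-type below all sash libraries, and it rose by 0.86 (SE 0.15, adjusted p = 0.0221). It did not pass without any one of sash 5 and 6 or wild-type 3 and 4 (adjusted p from 0.0559 to 0.104), or in the fit over all libraries (0.145). Rbm3, an RNA-binding protein induced by cold, stood at 3589.6, 4886, 3218 and 2701 CPM and 1964, 1680.5, 2477, 2001 and 1919 CPM without overlap and fell by 0.84 (SE 0.18, adjusted p = 0.0466). It did not pass without any one of sash 1, 2, 5 and 6 or wild-type 1, 3 and 4 (adjusted p from 0.0633 to 0.137), with library totals (0.0610), with housekeeping scaling (0.108) or without robust dispersions (0.0537).

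Several genes just missed the threshold with no overlap between the hosts. Casp1, the inflammasome protease, stood at 1219.7, 1674, 1191 and 996 CPM in wild-type and 833, 664, 699, 685 and 875 CPM in sash libraries (difference −0.76, SE 0.17, adjusted p = 0.0508). Leprot, which regulates the leptin receptor at the cell surface, stood at 387 to 449.9 CPM and 484 to 956 CPM (difference 0.84, SE 0.19, adjusted p = 0.0508). Numa1, a protein of the mitotic spindle, differed by 0.60 (SE 0.14, adjusted p = 0.0508) and Kat6a, a histone acetyltransferase, by 0.57 (SE 0.15, adjusted p = 0.0816). Cadm1, an adhesion molecule that mast cells also use, stood at 196, 150.4, 195 and 221 CPM and 154, 94.7, 81.1, 117 and 87.5 CPM and overlapped through sash 1 (difference −0.84, SE 0.20, adjusted p = 0.0667).

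No gene of the lymphocyte lists passed. Of 16 tested T cell genes 13 were above 0 (48.2% of all genes tested), and the median was 0.25. With no adjustment 6 were higher (10.6% of all genes) and 1 lower (11.2%) at a p under 0.05, and DESeq2 called 1 higher (3.73%). That gene was Cd5, an inhibitory receptor of T cells, at 63.1, 45.3, 56.6 and 116 CPM in wild-type and 156, 224, 82.8, 233 and 144 CPM in sash libraries, where sash 4 alone overlapped (difference 1.27, SE 0.34, adjusted p = 0.0891). Zap70, the kinase of the T cell receptor, and Cd28, its costimulator, differed by 0.70 (adjusted p = 0.164) and 0.73 (adjusted p = 0.180), while the receptor chains Cd3d and Cd3g and the co-receptor Cd8a differed by 0.17, 0.06 and 0.24. The T cell list summed to 2894 to 5405 CPM in sash, again highest in sash 2 and 5, and 2771 to 4412 CPM in wild-type libraries. Of 18 tested cytotoxic and NK genes 11 were above 0 (48.2% of all genes) and 2 were lower at an unadjusted p under 0.05 (11.2%), with a median of 0.08. DESeq2 called 1 of them lower (3.73% of all genes). That was Xcl1, a chemokine of NK and CD8+ T cells, at 325, 343, 476 and 245 CPM and 297, 135, 106, 185 and 145 CPM (difference −1.01, SE 0.28, adjusted p = 0.0959). Of 9 regulatory T cell genes 6 were above 0 (48.2% of all genes) and 1 was higher at an unadjusted p under 0.05 (10.6%). This was Tnfrsf4 (OX40, difference 0.61, adjusted p = 0.201). DESeq2 called none, and the median was 0.29.

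Immune checkpoint genes lay on both sides of 0, as did the whole panel. Of 15 tested 8 were above 0 and 7 below (48.2% and 51.8% of all genes tested), and none passed. At an unadjusted p under 0.05 2 were higher and 2 lower (10.6% and 11.2% of all genes). Of these DESeq2 called 1 each (3.73% of all genes in each direction). Pdcd1lg2, which encodes the PD-1 ligand PD-L2, stood at 40.4, 28.0, 105 and 45.1 CPM in wild-type and 70.8, 231, 190.4, 143 and 177 CPM in sash libraries, with sash 1 below wild-type 4 (difference 1.55, SE 0.40, adjusted p = 0.0891). Havcr2, the receptor TIM-3, was lower in all 5 sash libraries, at 173 to 214 against 233 to 271 CPM (difference −0.44, SE 0.12, adjusted p = 0.0929), and its ligand Lgals9 differed by −0.55 (SE 0.17, adjusted p = 0.127). Among 9 tested endothelial genes none passed and 2 were lower at an unadjusted p under 0.05 (11.2% of all genes), with a median of −0.21. Vcam1, an adhesion molecule of activated endothelium, was lower in all 5 sash libraries, at 273 to 390.4 against 401 to 527 CPM (difference −0.51, SE 0.15, adjusted p = 0.0959), and was called by DESeq2. The 3 proliferation genes on the panel, Mki67, Birc5 and Hells, differed by −0.25, −0.03 and −0.36, with none passing by edgeR or DESeq2 and none at an unadjusted p under 0.05.

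The genotype difference in MC-38 tumours was compared with that in AOM-induced colon tumours (5 sash and 5 wild-type libraries). Both effects came from 1 fit over the 4 groups. AOM tumours arose in the sash and wild-type mice themselves, whereas in MC-38 tumours the host alone differs in genotype. The origin of the tumours, the treatment (AOM or saline) and the count table also differ between the experiments, and their parts cannot be told apart. Of 847 genes tested 10 passed (1.18%), 6 with the higher effect in MC-38 tumours (0.708%) and 4 with the lower (0.472%), and 175 had an unadjusted p under 0.05 (20.7%). The tables were normalised separately for levels, so CPM in AOM tumours are given for their own groups only. Cd163 differed between the effects by 5.91 (SE 1.34, adjusted p = 0.0400), being 3.18 in MC-38 and −2.73 in AOM tumours, where it was near the detection limit in sash (0 to 1.91 CPM against 0 to 19.9 CPM in wild type). Thbs4 differed by 4.46 (SE 0.98, adjusted p = 0.0400), with 2.77 and −1.69. Clec10a gave 1.99 and −0.86 (difference 2.85, adjusted p = 0.0417). Maf, a transcription factor of macrophages and T cells, gave 1.23 and −0.84 (difference 2.07, adjusted p = 0.0400), and stood in MC-38 tumours at 40.4, 26.6, 40.9 and 54.1 CPM in wild-type and 56.6, 151, 59.6, 113 and 87.5 CPM in sash libraries. Numa1 had the smallest p, with 0.62 and −0.51 (difference 1.13, adjusted p = 0.0265), and Leprot gave 0.85 and −0.19 (adjusted p = 0.0400).

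In the other direction, Tpsb2 was lower in sash mice by far more in MC-38 than in AOM tumours, at −6.38 and −1.03 (difference −5.35, SE 1.18, adjusted p = 0.0400). Its AOM tumour levels were 0.868 to 31.8 CPM in sash and 15.5 to 59.1 CPM in wild-type libraries. Cpa3 and Tpsab1 differed by −3.24 (adjusted p = 0.138) and −4.93 (adjusted p = 0.232), which did not pass. Rfxap, Sgms1, a sphingomyelin synthase, and Shmt2, a mitochondrial enzyme of one-carbon metabolism, had effects below 0 in MC-38 and above 0 in AOM tumours, with differences of −1.02, −0.82 and −1.34. The class II effects did not differ detectably: 0.16 (SE 0.42) for H2-Ab1, 0.43 (SE 0.40) for H2-Eb1 and 0.76 (SE 0.60) for Ciita, with adjusted p of 0.872, 0.585 and 0.499. In MC-38 and AOM tumours the effects were 0.67 and 0.51 (SE 0.29 in AOM) for H2-Ab1 and 0.88 and 0.45 (SE 0.27) for H2-Eb1. For Ciita they were 0.85 and 0.09 (SE 0.41). In AOM tumours these genes overlapped between sash and wild type, and with such SE the effects are not shown to be alike. The 10 calls depend on single libraries. None was left without any one of MC-38 wild-type 1, 3, 4 or 5, MC-38 sash 2, AOM wild-type 3 or AOM sash 3, 4 or 5 (136 to 184 genes at an unadjusted p under 0.05), and 1, Numa1, was left without MC-38 sash 5 or 6. There were 2 and 3 calls without AOM wild-type 2 and 5, 6 without MC-38 sash 1 and 19 without AOM sash 1, while DESeq2 on all libraries gave 39.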

How the data were processed

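RNA was amplified with the QIAseq Targeted RNA panel for mouse immuno-oncology, per the labels' protocols, so a value describes 1 short stretch per gene. The values the authors deposited are whole-number counts per gene, not normalised. The submitters' processing notes name mm9 and, unversioned, DESeq2. Not given in the sources used here are aligner, counter and kind of count (tags or reads). Intervals and floors take each count as independent, which is not known, and cover counting error at most. Depth was 480136 to 986415 counts per library. The 5 control entries, at 0 in every library, were left out.

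Counts were tested with edgeR 4.0.16 (R 4.3.3): TMM scaling, filterByExpr with a minimum count of 10 and a minimum total of 15, robust quasi-likelihood fits and Benjamini-Hochberg adjustment over all genes tested. The 9 MC-38 libraries were fitted alone. The difference of effects used these and 10 AOM tumour libraries. The procedure was tested on simulated data. SE is the log2 difference over the square root of F. Alternatives were DESeq2 1.42.0, other scalings and filters, plain dispersions, a fit over all 34 libraries, a replicate block and leaving out each library. No 2 replicates were alike enough to be 1 library (chi-square per degree of freedom 13.2 to 84.0).

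The comparison, the 34 gene lists (739 names, 313 on the panel) and the proteasome group were chosen with earlier results of these data known. Named genes are the mast cell list, all genes that passed, those of smallest p up to 20, up to 4 of smallest p per list described (all in lists of 6 or fewer) and those passing in the difference of effects. Adgre1, Cd68, Cd3d, Cd3g, Cd8a, Irf1, Psmb9, Psmb10 and Psmc1 were named besides, after their values were seen. A gene under 10 counts on average in both groups appears only if it checks a label. Some genes that this rule would name are not reported here.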

Additional observations from a re-analysis of the deposited data

Results flagged for a closer look

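In the sash tumours a different library stood apart for each of 2 mast cell genes. Tpsab1 was at 4.96 CPM (3 counts) in sash replicate 6 and at 0 in the other 4. Tpsb2 was at 4.40 CPM (4 counts) in sash replicate 5 and at 0 in the other 4. Among the wild-type tumours Hpgds was at 243 CPM in replicate 1, against 180 to 189 CPM in the other 3. Of the 44 sets of values examined in this way 3 stood apart, and chance gives about 1 in 20. That rate does not hold for Tpsab1 and Tpsb2, where the other 4 sash libraries were at 0 and any count would stand apart.

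The genotype effect in MC-38 tumours, where the host alone differs, was unlike that in AOM tumours in 10 genes by the edgeR interaction test. The difference was 5.91 for Cd163, 4.46 for Thbs4, 2.85 for Clec10a, 2.07 for Maf, 1.13 for Numa1 and 1.04 for Leprot. It was −5.35 for Tpsb2, −1.34 for Shmt2, −1.02 for Rfxap and −0.82 for Sgms1.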

How the results depend on the processing

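The count of 9 genes became 14 with housekeeping scaling, 48 with DESeq2, 5 without robust dispersions, 36 in the fit over all libraries and 3 to 17 on leaving out 1 library. It became 13 with RLE size factors, 9 with library totals, 10 without a filter and 12 at a mean of at least 50 counts. Cpa3 and Tpsab1 passed in all of these, and Tpsb2 in all but the last, where it was not tested. Without sash 2 and 4, a choice made after seeing the data, 7 passed, among them Cpa3, Tpsab1, Tpsb2, Sla and Thbs4. H2-Eb1, H2-Ab1, Ciita and Rbm3 did not pass there. Replicate numbers 1, 4 and 5 occur in both groups. With the replicate block over them 3 genes passed, the same proteases. The deviations of same-numbered samples correlated at 0.249, 0.00226 and 0.629, and those of differently numbered samples at −0.723 to 0.590. The value for replicate 5, 0.629, was the highest of all. These values do not settle whether the numbers pair the samples, and the main fit did not pair them.

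The 10 differences of effects became 6 with library totals, 1 with housekeeping scaling, 5 at a mean of at least 50 counts, 39 with DESeq2, 0 with the replicate block (91 genes at an unadjusted p under 0.05) and 0 to 19 on leaving out 1 library.

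With housekeeping scaling the list medians moved to 0.0407 (class I), −0.0448 (type I interferon), 0.0861 (interferon-gamma) and −0.00202 (Toll-like receptors), and Hpgds reversed to 0.0365. On leaving out 1 library the median ran from −6.80 to −3.10 for the mast cell list, where the number of genes tested changed. It ran from −0.27 to −0.0509 for the Toll-like receptor list. The cause of the other changes was not tested. The pooled ratio ran from 94.2 to 123 for Cpa3, and was at least 132 for Tpsab1 and 67.3 for Tpsb2, with no upper end without sash 6 and 5. Genes under about 10 counts per library were left out of the test by the filter, and fitting them too gave 10 calls among 910 genes.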

Other observations

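Some further groups of the panel are given as values for the MC-38 tumours, with no gene passing by edgeR in any of them. The shares over all genes tested, for each count below, were 48.2% above 0 and 51.8% below 0. At an unadjusted p under 0.05 they were 10.6% higher and 11.2% lower, and by DESeq2 3.73% in each direction. Of 17 tested genes of the TNF superfamily and its receptors 11 were above 0, 4 of them at an unadjusted p under 0.05, and DESeq2 called none. Ltb, a subunit of lymphotoxin, stood at 264, 226, 302 and 401 CPM in wild-type and 479, 927, 240.1, 955 and 388 CPM in sash libraries (difference 1.01, SE 0.38, adjusted p = 0.164, edgeR), with sash 2 and 5 again highest. Of 13 tested genes of matrix metalloproteinases and adhesion 10 were above 0. DESeq2 called 1 lower, Vcam1, and 2 were higher and 2 lower at an unadjusted p under 0.05 in edgeR. Cd44, a hyaluronan receptor, was lower in all 5 sash libraries at 2185 to 3565 against 3831 to 4963 CPM (difference −0.50, SE 0.16, adjusted p = 0.128, edgeR). Of 10 tested neutrophil chemoattractant genes 7 were above 0 and 1 was higher at an unadjusted p under 0.05, and DESeq2 called none. All 6 tested genes of the type 3 response list were above 0, 1 of them at an unadjusted p under 0.05, with Batf, a transcription factor of T cells, at 152 to 234 CPM in sash and 101 to 159 CPM in wild-type libraries (difference 0.58, SE 0.17, adjusted p = 0.103, edgeR). DESeq2 called Batf higher.

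The Toll-like receptor list, which also holds signalling partners of the receptors, had 4 tested genes: Tlr3, Tlr7, Cd14 and Myd88. All were below 0 (51.8% of all genes tested), the highest at −0.011, and 1 of them had an unadjusted p under 0.05 (11.2%). Tlr3, a sensor of double-stranded RNA, differed by −0.65 (SE 0.21, adjusted p = 0.128) in edgeR, and DESeq2 called none. Of 7 tested apoptosis genes 5 were below 0 (51.8% of all genes tested), 2 of them at an unadjusted p under 0.05 (11.2%). DESeq2 called 1 lower, Casp1 (3.73% of all genes). Casp8, the initiator caspase of death receptors, was lower in all 5 sash libraries, at 400.2 to 508 against 511 to 829 CPM (difference −0.44, SE 0.17, adjusted p = 0.168, edgeR).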
